A study of Mus musculus with 106 samples.

Results

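CAST/EiJ is a wild-derived inbred mouse strain, and its liver transcriptome on a chow diet was compared here with that of 8 other inbred strains. The comparison holds the 6 CAST/EiJ chow libraries, 3 from females and 3 from males, of the 106 liver RNA-seq libraries of the series. They were set against 47 chow libraries of the wild-derived PWK/PhJ and WSB/EiJ and of the classical strains A/J, C57BL/6J, NZO/HlLtJ, DBA/2J, 129S1/SvImJ and NOD/ShiLtJ. Libraries were chosen by their strain and diet labels alone, and the average over the other strains gave each strain equal weight and each sex equal weight within a strain. Each strain contributed 3 females and 3 males except 129S1/SvImJ, with 2 females, because 1 female chow library of that strain was left out.

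The labels name no engineered allele and no drug treatment. The mice came from colonies bred for several generations at the institute of the study, entered in 15 cohorts, and were killed in the morning at 21 weeks of age. From week 8 they ate either chow, with 6% of calories from fat, 20% from protein and 74% from carbohydrate, or a high-fat diet with 60% from fat, 20% from protein and 20% from carbohydrate. Livers were perfused with saline and freed of the gallbladder before RNA was taken. The 6 CAST/EiJ mice on the high-fat diet, with 46 high-fat mice of the other strains, served as a set of different animals in which the same strain difference could be read. The 3 chow-fed CAST/EiJ females and the 3 males bear animal numbers from separate ranges, so sex and number range cannot be told apart within this strain. The sample titles do not say whether the numbers follow the time of entry.

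The liver makes most plasma proteins, clears drugs and steroids, and buffers blood glucose and lipids, and the genes for these tasks include several families of near-identical copies. CAST/EiJ descends from Mus musculus castaneus, PWK/PhJ from Mus musculus musculus, and the classical strains mostly from Mus musculus domesticus, so CAST/EiJ differs from the mouse reference genome at many more positions than a classical strain does. Reads that differ from the reference can be placed less well, which matters most for genes with close copies and for pseudogenes. WSB/EiJ is the third wild-derived strain of the set.

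Gene counts per library ranged from 43516312 to 63341708 in CAST/EiJ and from 38773478 to 61279606 in the other strains. Levels are given as CPM, the counts scaled to a common library size, after correction of the sizes by the trimmed mean of M values (TMM). Reads without a unique place made up 20.0% to 23.6% of the CAST/EiJ totals and 13.4% to 26.5% of the others, and ambiguous assignments made up 4.76% to 5.13% against 4.88% to 6.54%. Reads that overlapped no gene were at most 7.09% in the other strains and reached 8.40% in the second CAST/EiJ female and 7.88% in the third. The second CAST/EiJ male had the most genes at 0, 194 against at most 163 in the other strains. Of 13 hepatocyte markers 12 were measured, none was at the floor of 3 counts in CAST/EiJ, and Alb, encoding albumin, stood at 76042 CPM against 87430.0 CPM (edgeR adjusted p = 0.176). Xist was at 218 CPM or more in the 3 CAST/EiJ females and at 2.13 CPM or less in the 3 males, and the Y-linked Ddx3y at 53.5 CPM or more in the males and 0.235 CPM or less in the females, as the sex labels have it.

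CAST/EiJ livers differed from the average of the other 8 strains in the majority of genes. Of 14330 genes, 8654 (60.4%) passed an adjusted p of 0.05 in edgeR's quasi-likelihood F test, 4382 higher in CAST/EiJ (30.6%) and 4272 lower (29.8%). The median log2 difference of all genes was -0.0049, and the median size among the called genes was 0.59. In 2462 of the called genes the difference was at least 1 on the log2 scale, with 1195 higher and 1267 lower. The log2 difference is the mean log2 level of the 2 CAST/EiJ groups minus the equally weighted mean over the other 16 groups, so 1 strain with a very high level pulls it less than it pulls a mean in CPM. These tests set CAST/EiJ against the spread between mice of the same strain. When each strain counted as 1 value, and CAST/EiJ was assumed to vary like the other strains, limma called 319 genes, 170 higher and 149 lower. The p-values below therefore compare mice and not strains. By the same edgeR test, each strain against the remaining 8, WSB/EiJ had 8491 calls, PWK/PhJ 7387 and 129S1/SvImJ, the lowest, 3803. These comparisons share libraries.

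A stricter reading asked in which genes all 6 CAST/EiJ chow libraries lay beyond all 47 others. All 6 lay above in 274 genes (1.91%) and below in 195 (1.36%), together 469 (3.27%). The same count was 398 for PWK/PhJ, 159 for WSB/EiJ and 32 to 114 for the other strains, with 5 libraries in place of 6 in 129S1/SvImJ. The strain mean next in order to CAST/EiJ was most often PWK/PhJ for the genes above (83 genes, 30.3%) and WSB/EiJ for the genes below (55 genes, 28.2%), followed by PWK/PhJ (49 genes, 25.1%). Annotated pseudogenes made up a large part of the genes above: of 593 pseudogenes 78 lay above and 5 below (14% in either direction), and of 12751 protein-coding genes 159 above and 163 below (2.53%). Pseudogenes share sequence with their parent genes, and the part that read placement plays in these counts was not tested.

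Among protein-coding genes, several that are known from other tissues were read in CAST/EiJ liver at levels far above those of the other chow strains. Gsdma3, encoding a pore-forming gasdermin of skin epithelium (chr11:98626360-98638226, GRCm38), was at 34.5, 42.7 and 33.9 CPM in the 3 CAST/EiJ females and at 34.6, 45.8 and 26.3 CPM in the 3 males. The highest of the other 47 libraries was at 0.116 CPM (edgeR adjusted p = 1.28e-37). Tas1r1, encoding a subunit of the taste receptor for amino acids (chr4:152027914-152038568), was at 32.2, 63.2 and 57 CPM in females and 48.2, 81.8 and 107 CPM in males. The other libraries lay between 0.0333 and 0.486 CPM, a log2 difference of 8.12 ± 0.13 (SE). So both sexes of CAST/EiJ were high, every other strain was close to the lowest levels that can be read, and no library bridged the gap.

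Tspan10, a tetraspanin gene, reached 3.20 to 12.3 CPM against at most 0.181 CPM. Baiap2l2, encoding a membrane-bending protein of epithelia, reached 5.63 to 11 CPM against at most 0.170 CPM. Tff1, encoding a secreted peptide of the stomach lining, showed the widest spread of these, from 1.88 to 13.7 CPM against at most 0.258 CPM. A gene on the opposite strand, Gm15318, overlaps Tff1, and with strand use in counting not given in the sources used here, reads from such a pair cannot be told apart. Ces2b, a carboxylesterase gene (chr8:104831572-104840093), was at 14.8 to 30.3 CPM in CAST/EiJ and also read in PWK/PhJ, with a mean of 5.76 CPM there and up to 7.39 CPM in 1 library.

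Atp6v0a4 was the gene of this set with a sex difference within CAST/EiJ. It encodes a subunit of the proton pump that acidifies urine in the kidney (chr6:38048483-38124586). The 3 CAST/EiJ females were at 125, 87.1 and 85.2 CPM and the 3 males at 3.19, 2.33 and 15.2 CPM, against at most 1.85 CPM in the others. The strain difference was 3.45 smaller on the log2 scale in males than in females (SE 0.48, edgeR adjusted p = 6.87e-06). It overlaps D630045J12Rik on its own strand and Tmem213 on the other.

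The genes with the deepest loss in CAST/EiJ included an interferon-inducible GTPase, a serpin and a solute carrier that are abundant in the other livers. Rarres1, a retinoic-acid-responsive membrane protein gene (chr3:67478972-67515523), was at 0.166, 0.405 and 0.215 CPM in CAST/EiJ females and 0.203, 0.231 and 0.177 CPM in males. The other 47 libraries spanned 18.2 to 305 CPM with a median of 97.9, a log2 difference of -8.45 ± 0.29 (edgeR adjusted p = 4.73e-26). Iigp1, encoding a GTPase that attacks parasite vacuoles (chr18:60376027-60392634), was at 1.41, 1.81, 0.293, 0.974, 0.588 and 0.629 CPM, against 82.5 to 665 CPM. The CAST/EiJ libraries were thus all far under the lowest library of any other strain for both genes.

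Serpina1a, 1 of the mouse copies of the alpha-1-antitrypsin gene (chr12:103853589-103863562), had a mean of 30.2 ± 10.6 CPM (SD, n = 6) in CAST/EiJ and 2071 ± 398 CPM (SD over 8 strains) in the others, a log2 difference of -6.06 ± 0.18. Its neighbour in sequence, Serpina1e, went the other way, at 3765 ± 2007 CPM against 1721 ± 1929 CPM (log2 difference 3.78 ± 0.15), and reads may be split among such copies. Slc22a30, an organic anion transporter gene, was at 0.0390 to 0.609 CPM against 2.59 to 186 CPM. Dntt, the DNA polymerase gene that lymphocytes use to diversify receptors, was at 0.0406 to 0.105 CPM against 0.237 to 66.7 CPM. Fam213b, encoding a prostaglandin F synthase, was at 0.107 CPM or less against 0.915 to 42.1 CPM, and it overlaps Mmel1 on the opposite strand. Tuba1b, an alpha-tubulin gene, was at 0.213 CPM or less against 4.29 to 16.9 CPM, but it has close paralogs and overlaps Gm49450 and Gm41396.

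**Figure D1:**
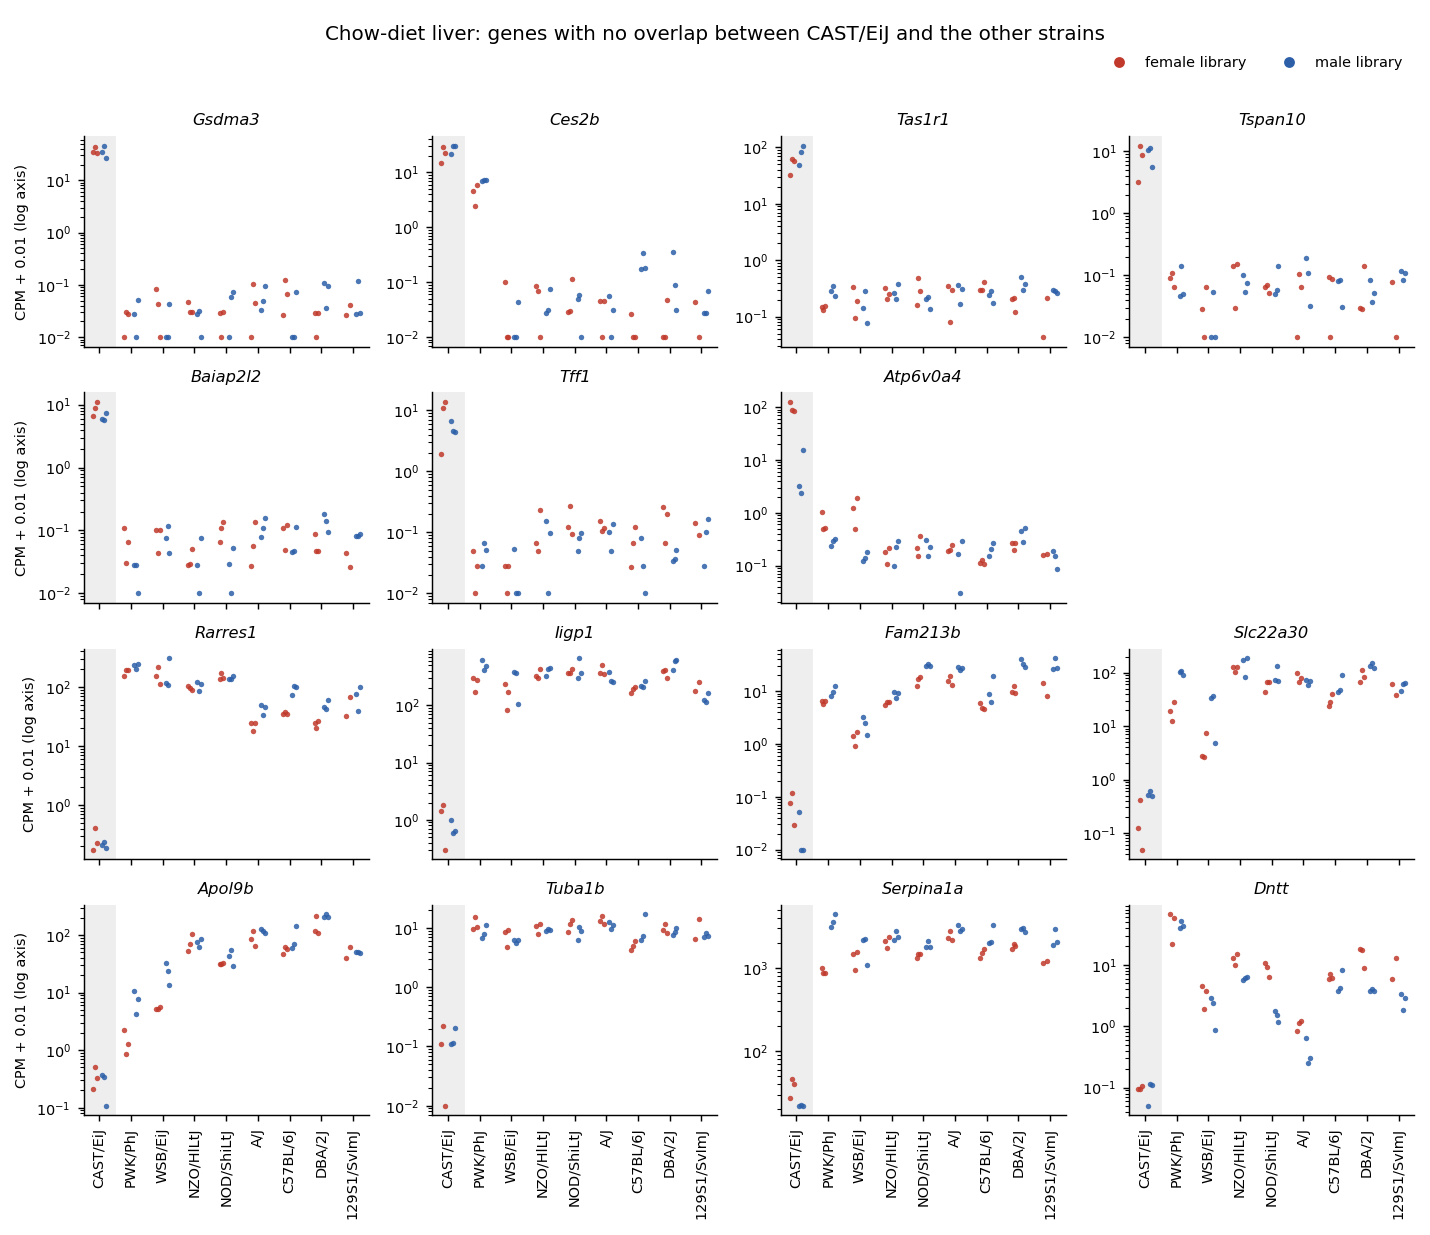
Each panel shows 1 protein-coding gene in all 53 chow libraries, by strain on the x axis and as CPM + 0.01 on a log y axis, with females in red and males in blue. In the 7 genes higher in CAST/EiJ, such as Gsdma3 at 26.3 to 45.8 CPM against at most 0.116 CPM, and the 8 lower, such as Rarres1 at 0.405 CPM or less against 18.2 CPM or more, the shaded CAST/EiJ points do not overlap those of any other strain.

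A few genes were at the floor on 1 side. Wfdc17, encoding a secreted protein of macrophages with a whey acidic protein domain (chr11:83703991-83706268), had 5 counts in all 6 CAST/EiJ chow libraries together, no more than 2 in any. That is 0.0167 CPM, with an exact 95% Poisson interval of 0.00543 to 0.0390 that covers counting error only. The other 47 libraries held 16237 counts, or 6.70 CPM, and the lowest of them held 116. In the opposite direction, 3 genes had at most 3 counts in every library of the other strains. Gm12372 had 2102 counts in CAST/EiJ and 23 in the 47 others, Tdpoz2 983 and 12, and the pseudogene Selenok-ps6 449 and 7.

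Among called genes ordered by the change in CPM, those at the ends included abundant liver transcripts, beside the pseudogene Gm13340 and mt-Co1, which are given with the mitochondrial genes. Serpina3k, a kallistatin-like protease inhibitor gene, rose to 14529 ± 2651 CPM from 7982 ± 3144 CPM over the other strains (log2 difference 1.04 ± 0.11). It overlaps Serpina3m on its own strand, which was called higher too (1.27 ± 0.11), and the part of reads shared by the pair was not tested. Mat1a, which makes the methyl donor S-adenosylmethionine, was at 11129 against 6777 CPM (0.78 ± 0.10), and Tat, the first enzyme of tyrosine breakdown, at 6395 against 2669.6 CPM (1.39 ± 0.20). Apoe, the ligand that returns lipoprotein remnants to the liver, was at 15322 against 24235 CPM (-0.65 ± 0.11). Cyp2e1, the ethanol- and acetone-oxidising P450, was at 3175 to 5890.1 CPM in the 6 CAST/EiJ libraries, all below the lowest other library at 6516 CPM (log2 difference -1.12 ± 0.11). C3, the central complement protein gene, was at 6503 against 10820.0 CPM (-0.68 ± 0.15), and here the groups overlapped.

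Transcripts of mitochondrial origin changed together with nuclear copies of mitochondrial sequence. The mitochondrial gene mt-Co1, a subunit of cytochrome c oxidase, was at 7689 CPM in CAST/EiJ, 8367 CPM in PWK/PhJ and 14870.0 CPM on average over the 8 strains. Gm13340, a pseudogene on chromosome 2 (chr2:22588103-22589647), was at 6421 ± 434 CPM in CAST/EiJ and 8019.8 CPM in PWK/PhJ, while the median of the other 47 libraries was 17.7 CPM. The adjoining Gm13341 was at 1993 ± 231 CPM in CAST/EiJ and 1153 CPM in PWK/PhJ against a median of 6.56 CPM. Among the 16 mitochondrial genes measured, 14 were called, 11 higher and 3 lower, beside 60.4%, 30.6% and 29.8% of all genes. They included mt-Cytb, of complex III, at 10851 against 7853 CPM and mt-Nd3, of complex I, at 27.8 against 2.79 CPM. The 2 strains with the high pseudogene levels also had the lowest and second-lowest mt-Co1, and the part of read placement in this pair of changes was not tested.

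Interferons signal through receptors and transcription factors, among them STAT2 and IRF9, to switch on antiviral genes, which even in healthy liver keep a resting level. This program was lower in CAST/EiJ. Of 55 measured members of an interferon-response list 47 were called lower and 2 higher, with a median log2 difference of -1.55, beside 29.8% lower and 30.6% higher over all genes. CAST/EiJ had the lowest of the 9 strain means for 34 of the 55, and for 18.4% of all genes. The letters that such genes share were looked for in the 250 bases before the RefSeq start, on both strands, as GAAA, then 2 free bases, then GAAA, a form of the interferon-stimulated response element. They were found in 20 of the 33 members with a promoter in the table (60.6%) and in 936 of all 27025 promoters (3.46%). Stretches of 80 bases from 3 of them, from the reference strain (GRCm38.p6) and not the CAST/EiJ allele, show 1 match each in capitals. Each of the 3 stretches also holds at least 1 further match that is not marked, in Apol9b one that overlaps the marked match. They are Isg15 (chr4:156200852-156200931, minus strand), Ifit1 (chr19:34640750-34640829, plus strand, match on the opposite strand) and Apol9b (chr15:77728992-77729071, plus strand, match on the opposite strand).
Isg15: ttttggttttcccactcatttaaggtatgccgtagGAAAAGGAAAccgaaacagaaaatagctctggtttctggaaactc
Ifit1: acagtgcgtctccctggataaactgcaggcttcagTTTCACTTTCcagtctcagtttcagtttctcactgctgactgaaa
Apol9b: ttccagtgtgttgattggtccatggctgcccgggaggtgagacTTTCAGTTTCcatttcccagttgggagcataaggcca

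Isg15, encoding the ubiquitin-like protein that is joined to other proteins after interferon, was at 0.300, 0.768 and 0.644 CPM in CAST/EiJ females and 0.649, 0.546 and 0.334 CPM in males. The other libraries ran from 0.654 over a median of 6.02 to 38.3 CPM, a log2 difference of -3.50 ± 0.33 (edgeR adjusted p = 6.78e-12). The CAST/EiJ libraries sat at the bottom of the range and overlapped its lowest values, and the lowest other strain mean was that of PWK/PhJ at 1.73 CPM. Irf7, the transcription factor that amplifies the response, was at 2.20, 2.81, 2.63, 4.02, 7.92 and 3.44 CPM against 3.44 to 99.7 CPM (log2 difference -3.08 ± 0.22). Apol9b, 1 of 2 interferon-inducible apolipoprotein L genes with near-identical sequence, was at 0.0983 to 0.490 CPM against 0.852 to 228 CPM (-7.08 ± 0.32). Apol9a was at 0.649 to 1.52 CPM against 2.02 to 170.1 CPM (-4.87 ± 0.31). Both lay below all other libraries, as did Iigp1 above. Isg15 and Irf7 were picked after their values were seen.

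Not all of the list was low. Mx2, an antiviral GTPase gene, was at 23.5 to 40.0 CPM against a median of 6.81 CPM (2.46 ± 0.14), although PWK/PhJ was higher still at 57.3 CPM. Ly6c1, a surface protein gene of monocytes and endothelium, was at 4.68 to 7.40 CPM, above all other libraries at 3.60 CPM or less. Of the signalling parts, Irf9 was lower by 1.29 on the log2 scale, while Stat2 was at 78.5 against 77.6 CPM (log2 difference 0.04 ± 0.16, edgeR adjusted p = 0.856). The 6 genes that passed in neither direction were Stat2, Ifi27, Ifi27l2a, Ifi44l, Tgtp1 and Ly6a. As the mean log2 CPM over the list, the CAST/EiJ libraries spanned 0.85 to 1.44, the other 47 spanned 1.05 to 4.20, and the overlap came from WSB/EiJ (1.05 to 2.32) and PWK/PhJ (1.26 to 3.15).

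Genes for antigen presentation followed the same direction. Of 30 measured MHC and antigen-processing genes 27 were lower and 2 higher, beside 29.8% and 30.6% of all genes, with a median log2 difference of -0.84. CAST/EiJ had the lowest of 9 strain means for 9 of the 30, beside 18.4% of all genes, and its median list level, as mean log2 CPM, was 3.72 beside 3.64 in WSB/EiJ and 3.97 in PWK/PhJ. H2-T22, a nonclassical class I gene, was at 7.14 to 8.59 CPM, below all other libraries at 9.55 CPM or more (log2 difference -2.43 ± 0.14). Psmb8, an immunoproteasome subunit gene, was lower by 1.48 on the log2 scale, and H2-Q6, another class I gene, by 1.51. The classical class I genes H2-K1 and H2-D1, picked after their values were seen, were at 413 against 709.6 CPM and 351 against 597 CPM. H2-K1 was not called when C57BL/6J was left out of the reference (log2 difference -0.22, edgeR adjusted p = 0.0636). The genes higher in CAST/EiJ were H2-Q1, at 20.4 to 27.5 CPM against a mean of 8.05 CPM, and H2-Ea-ps. MHC genes differ in sequence and copy number between haplotypes, which touches the counting of every strain here.

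Markers of resident immune cells were lower in the same libraries. In bulk liver, fewer cells of a type and less RNA per cell cannot be told apart. Of 13 Kupffer cell and macrophage markers 12 were lower and none higher, beside 29.8% and 30.6% of all genes, with a median log2 difference of -1.06. Their summed level was 211 to 350 CPM in CAST/EiJ against 307 to 1492 CPM. As mean log2 CPM, the median list level was 3.68 in CAST/EiJ, 4.08 in PWK/PhJ, 4.19 in WSB/EiJ and 4.33 in 129S1/SvImJ. In the remaining strains it was 4.98 to 5.34. The CAST/EiJ females, at 3.85 to 4.09, overlapped PWK/PhJ at 3.85 to 4.34, and the males, at 3.29 to 3.52, lay below all other strains. Adgre1, which encodes the F4/80 antigen, was at 3.28 to 5.13 CPM, below all other libraries at 5.37 CPM or more (-1.76 ± 0.17). Vsig4, a complement receptor gene, was lower by 1.59 ± 0.14, and Clec4f, a Kupffer cell lectin gene picked after its values were seen, by 1.01 ± 0.13. Of 8 T and NK cell markers that were measured, 7 were lower, and the summed level was 1.93 to 2.69 CPM against 1.14 to 16.6 CPM, with 2 of the markers at 0 in at least 1 CAST/EiJ library. WSB/EiJ was as low, with a range of 1.14 to 2.46 CPM. B and plasma cell markers were lower in 9 of 11 and higher in 1, Xbp1, which other cells also express. Their summed level was 222 to 363 CPM in CAST/EiJ against a median of 218 CPM in the others, and the mean log2 CPM had a median of -0.36 in CAST/EiJ and -1.03 in WSB/EiJ. Sinusoidal endothelial markers were lower in 8 of 12 and higher in 1, Lyve1, with a summed level of 340 to 427 CPM against 366 to 737 CPM, while granulocyte markers had 1 higher and 1 lower of 10, below the shares of all genes. The part of these cell markers in the interferon and MHC differences was not tested. With each strain as 1 value, limma called 1 interferon gene lower and none of the MHC or macrophage genes, while 23, 2 and 7 were lower at an unadjusted p under 0.05.

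**Figure D2:**
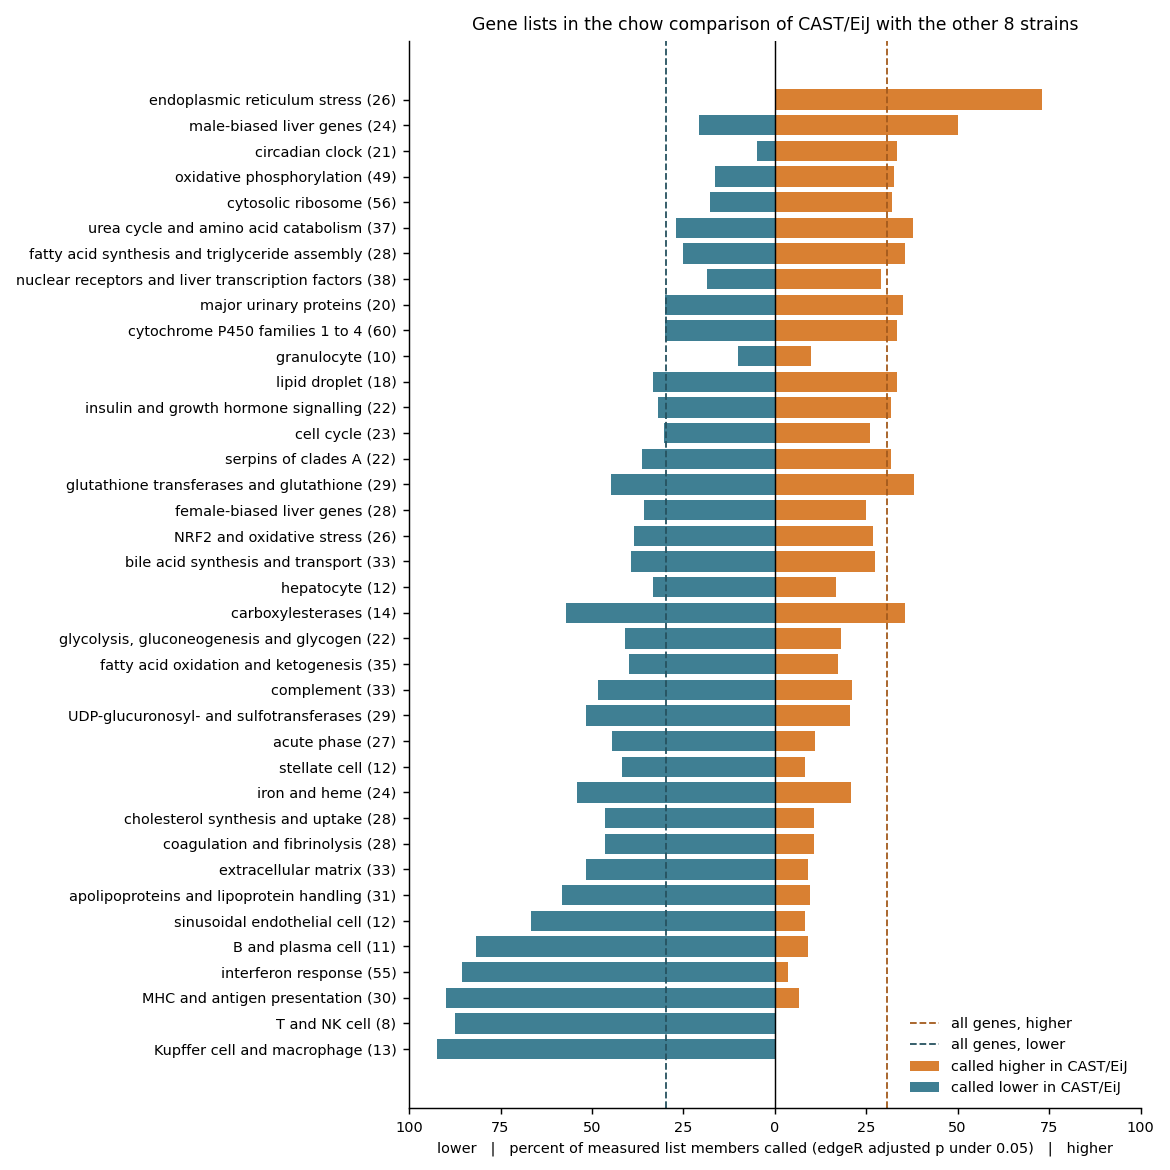
Horizontal bars give the percent of measured members of each gene list called higher (right, orange) or lower (left, blue-green) in CAST/EiJ chow liver, with the number of measured members in brackets and dashed lines at the values for all genes, 30.6% higher and 29.8% lower. Kupffer cell and macrophage (0 higher and 12 lower of 13), MHC (2 and 27 of 30) and interferon lists (2 and 47 of 55) extend to the left and the endoplasmic reticulum stress list (19 and 0 of 26) to the right.

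Chaperones and folding enzymes of the endoplasmic reticulum were higher. When unfolded proteins build up there, ATF6, XBP1 and PERK signalling raises chaperones, and the PERK arm raises ATF4, DDIT3 and its targets. Of 26 list members 19 were called higher and none lower, beside 30.6% and 29.8% of all genes, with a median log2 difference of 0.66. CAST/EiJ had the highest of 9 strain means for 14 of the 26, and for 2583 of all 14330 genes. As mean log2 CPM, the list level was 6.04 to 7.10 in the CAST/EiJ libraries. A WSB/EiJ male at 7.55 and a WSB/EiJ female at 7.11 were higher. Libraries of every other strain but A/J lay within the CAST/EiJ range. The endoplasmic reticulum stress response element, read as CCAAT, then 9 free bases, then CCACG, on both strands of the same 250 bases, was in 6 of the 23 members with a promoter (26.1%) and in 35 of all 27025 promoters (0.130%). It is shown in capitals for Hspa5 (chr2:34771994-34772073, plus strand) and, on the opposite strand, Creld2 (chr15:88819489-88819568, plus strand), again from the reference strain.
Hspa5: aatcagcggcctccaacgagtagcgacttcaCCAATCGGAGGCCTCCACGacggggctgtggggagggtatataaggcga
Creld2: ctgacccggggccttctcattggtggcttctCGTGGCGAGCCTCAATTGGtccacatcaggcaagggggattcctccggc

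Hspa5, which encodes the chaperone BiP, was at 2151, 2162 and 1202 CPM in CAST/EiJ females and 1379.8, 1782 and 5539 CPM in males. The other libraries ran from 316 over a median of 774 to 5227 CPM, a log2 difference of 1.39 ± 0.27 (edgeR adjusted p = 2.49e-05). All 6 CAST/EiJ libraries were above the median of the others but the groups overlapped, and WSB/EiJ, at 1748 CPM, was the closest strain. Sdf2l1, encoding a partner of BiP, was at 56.0, 103, 37.0, 41.5, 60.1 and 221 CPM against a median of 13 CPM (2.00 ± 0.38). Creld2, a disulfide isomerase gene, was at 157, 277, 101, 111, 153 and 744 CPM against a median of 45.3 CPM (1.92 ± 0.37). Manf, a secreted survival factor of the same program, was higher by 1.83 ± 0.31 and Hyou1, a large chaperone gene, by 1.64 ± 0.26.

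The third CAST/EiJ male was the highest of the 6 in each of these genes. Without it 17 of the 26 members were called, and Creld2 fell to a log2 difference of 1.25 (edgeR adjusted p = 0.00923). Atf4 was called higher by 0.29 ± 0.12, while Ddit3 and Atf3 were not called. Ddit3 was at 7.93 against 8.43 CPM (log2 difference -0.03 ± 0.26) and Atf3 at 3.41 against 4.45 CPM (-0.22 ± 0.39). With each strain as 1 value, limma called 2 of the 26 genes higher, and 13 at an unadjusted p under 0.05. Herpud1, Asns, Chac1, Ppp1r15a and Crebrf did not pass either. Hspa5 and Hyou1 were picked after their values were seen.

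**Figure D3:**
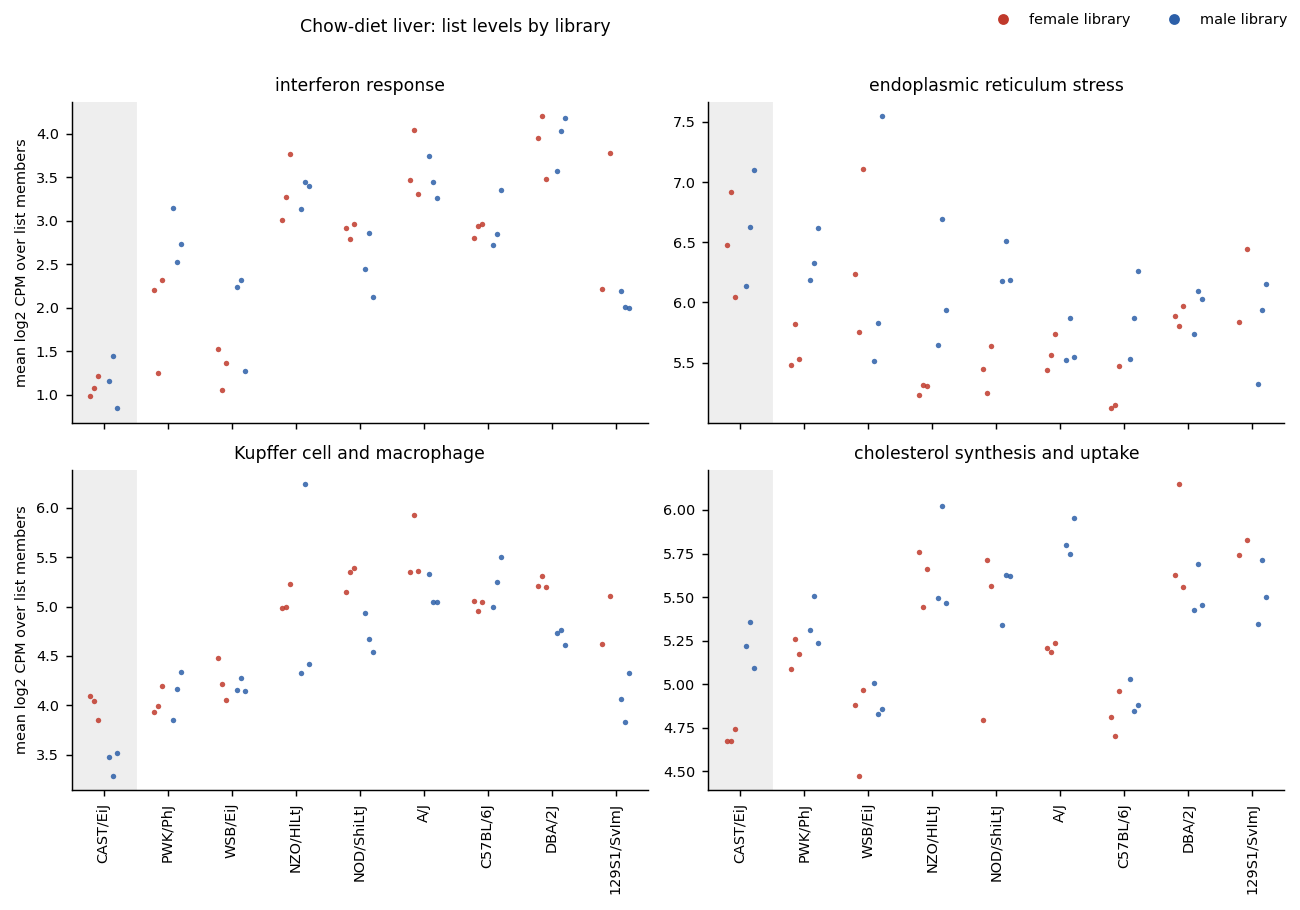
Points show, for each chow library, the mean log2 CPM over the measured members of 4 gene lists, by strain on the x axis with females in red and males in blue. CAST/EiJ lies at 0.85 to 1.44 for the interferon response and 3.29 to 4.09 for macrophage markers, at the low end of the other strains, and at 6.04 to 7.10 for endoplasmic reticulum stress, toward the upper end.

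Cholesterol synthesis is driven by SREBP2, which raises the enzymes of the pathway and Insig1 together when cell sterol falls. Of 28 measured genes 13 were lower and 3 higher in CAST/EiJ, beside 29.8% and 30.6% of all genes, with a median log2 difference of -0.16. CAST/EiJ had the lowest of 9 strain means for 4 of the 28, below the 18.4% of all genes. The median list level, as mean log2 CPM, was 4.92 in CAST/EiJ, 4.86 in C57BL/6J and 4.87 in WSB/EiJ. The CAST/EiJ females, at 4.67 to 4.74, were as low as these strains. The males, at 5.09 to 5.36, lay above every C57BL/6J library (at most 5.03) and WSB/EiJ library (at most 5.01). In females 12 genes were lower and 2 higher, beside 23.6% and 25.2% of all genes. In males 8 were lower and 3 higher, beside 23.3% and 24.9%. Insig1, the sterol-dependent brake on SREBP processing, was at 18.6, 27.0, 11.3, 40.0, 45.6 and 37.6 CPM against a median of 87.8 CPM (-1.64 ± 0.23). Idi1 and Msmo1, enzymes of the middle and late pathway, were lower by 1.69 ± 0.28 and 1.47 ± 0.21. The 3 CAST/EiJ females had lower values than the 3 males in Insig1, Idi1 and Msmo1. The strain difference of these genes was not called sex-dependent (edgeR adjusted p = 0.318, 0.0628 and 0.0607). Over the list edgeR called 1 gene sex-dependent and DESeq2 called 5, beside 445 and 609 of all 14330 genes. Among the genes called higher were Insig2, a second brake on SREBP processing (0.64 ± 0.18), and Mylip, a ubiquitin ligase gene (0.53 ± 0.09), and Insig2 was not called without the first CAST/EiJ female (0.33, edgeR adjusted p = 0.137). With each strain as 1 value, limma called none of these genes lower (3 at an unadjusted p under 0.05), and 2 of the 18 apolipoprotein genes described next.

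Apolipoprotein and lipoprotein-handling genes were lower in 18 of 31 and higher in 3, beside 29.8% and 30.6% of all genes, with a median log2 difference of -0.46. Besides Apol9a, Apol9b and Apoe, Saa4, a lipoprotein-bound member of the serum amyloid family, was at 14.4 to 66.1 CPM against 60.9 to 1399.8 CPM (-2.99 ± 0.30). Apoa4, a protein of intestinal and hepatic lipoproteins, was higher, at 1701 ± 412 CPM against 962 ± 689 CPM (1.28 ± 0.20). Apob and Apoa1, the main proteins of LDL and HDL, were not called, with log2 differences of -0.08 and -0.22.

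Among genes of lipid droplets, Cidec, which fuses lipid droplets, was at 274, 99.3, 136, 295, 251 and 219.8 CPM against a median of 37.7 CPM (log2 difference 2.63 ± 0.29), and the lipase gene Pnpla2 was higher by 1.37 ± 0.15. Fitm1, which buds droplets from the membrane, was at 0.0210 to 0.831 CPM against a mean of 8.76 CPM (-3.70 ± 0.41), and Plin4, a droplet coat gene, was lower by 1.74 ± 0.32. Over the list 6 of 18 were higher and 6 lower, near the 30.6% and 29.8% of all genes. Pparg, the transcription factor of fat storage, was at 1.46, 3.60, 3.26, 0.325, 0.252 and 0.393 CPM against a median of 7.22 CPM (-2.52 ± 0.23). Of 28 fatty acid and triglyceride synthesis genes 10 were higher and 7 lower, near the shares of all genes. Thrsp, a lipogenic regulator gene, was higher by 1.68 ± 0.21, Lpin1, a phosphatidate phosphatase gene, by 1.32 ± 0.38, and Acacb, an acetyl-CoA carboxylase gene, by 0.86 ± 0.15. Scd1, the enzyme that desaturates stearate, was lower by 1.79 ± 0.38, while WSB/EiJ was lower than CAST/EiJ at 85.1 CPM against 308 CPM. In fatty acid oxidation 14 of 35 genes were lower and 6 higher, beside 29.8% and 30.6% of all genes. There Vnn1, a pantetheinase gene responsive to PPARA, was lower by 1.69 ± 0.20 and Ppara itself by 0.68.

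Of 22 glycolysis, gluconeogenesis and glycogen genes 9 were lower and 4 higher, beside 29.8% and 30.6% of all genes, with a median log2 difference of -0.31. Ppp1r3b, which brings phosphatase to glycogen, was lower by 1.69 ± 0.28 and the glycogen phosphorylase gene Pygl by 1.05 ± 0.11. Pck1, of gluconeogenesis, was higher by 0.40 ± 0.13 but not without the second CAST/EiJ female (0.27, edgeR adjusted p = 0.109), and G6pc was at 854 against 684 CPM (edgeR adjusted p = 0.130). Lepr, the leptin receptor gene, was at 386, 253, 238, 108, 53.6 and 116 CPM against a median of 19.1 CPM (2.67 ± 0.36), near the WSB/EiJ mean of 179 CPM. Socs2, a growth hormone target, was lower by 1.91 ± 0.50 and the receptor gene Ghr by 0.87 ± 0.16.

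Of 37 urea cycle and amino acid breakdown genes 14 were higher and 10 lower, with a median of 0.06, beside 30.6% and 29.8% of all genes. In females alone 17 were higher and 4 lower (median 0.32), and in males 7 and 12 (-0.19), where all genes gave 25.2% and 23.6% in females and 24.9% and 23.3% in males. The strain difference itself was called sex-dependent for 3 of the 37 genes, beside 3.11% of all genes. Asl, which makes arginine in the cycle, was at 3139, 2781, 3251, 1567, 1784 and 2229.8 CPM against 249 to 1976 CPM (log2 difference 1.40 ± 0.12, edgeR adjusted p = 4.89e-13). Cps1, the entry enzyme, was higher by 1.07 ± 0.13. Aass, of lysine breakdown, was at 1755 ± 239 CPM against 605 ± 373 CPM (1.76 ± 0.12). Otc, the ornithine step of the cycle, was lower by 0.64, as were Aldh4a1, of proline breakdown (-1.33 ± 0.17), and Fah, the last step of tyrosine breakdown (-0.97 ± 0.09).

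Of 60 cytochrome P450 genes 20 were higher and 18 lower, with a median of 0.01, which is near the 30.6% and 29.8% of all genes. Cyp2d12 was at 4.21, 3.20 and 4.92 CPM in CAST/EiJ females and 39.8, 56.3 and 57.8 CPM in males, against 0.0169 to 3.57 CPM (log2 difference 5.54 ± 0.14). Cyp2j6, an arachidonate-metabolising P450 gene, was at 12.4 to 20.2 CPM against 18.4 to 96.7 CPM, so the ranges just overlapped (log2 difference -1.83 ± 0.11). Cyp2c38 was at 6.54 against 135 CPM (-3.28 ± 0.29), with PWK/PhJ lower still at 2.28 CPM.

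Conjugating enzymes had called members in both directions, where 29.8% of all genes were lower and 30.6% higher (23.3% and 24.9% in males). UDP-glucuronosyl- and sulfotransferases were lower in 15 of 29 and higher in 6 (median -0.56), with Sult5a1 at 0.149 to 2.77 CPM against a median of 11.6 CPM (-4.67 ± 0.34). Glutathione genes were lower in 13 of 29 and higher in 11 (median -0.24; in males 10 lower and 11 higher), with Gstt1 at 17.1 against 163 CPM (-3.56 ± 0.23) and Mgst2, a microsomal transferase gene, at 5.63, 8.68, 8.26, 22.4, 21.2 and 57.4 CPM against a median of 0.210 CPM (5.65 ± 0.15). Among carboxylesterases, which hydrolyse esters, 8 of 14 were lower and 5 higher, the lower ones including Ces1e at 22.4 to 38.1 CPM, below all other libraries at 56.7 CPM or more (-2.72 ± 0.19). Members of each family share long stretches of sequence, so reads may be divided differently among them in a strain that differs from the reference.

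Major urinary proteins, the pheromone carriers that mouse liver exports to urine, had 7 of 20 members higher and 6 lower, near the shares of all genes, and in males 5 higher and 10 lower, beside 24.9% and 23.3%. Mup20, which encodes the male pheromone darcin, was at 0.499, 0.384 and 0.137 CPM in CAST/EiJ females and 1.26, 1.70 and 2.34 CPM in males. The other females spanned 2.16 to 43.1 CPM and the other males 24.2 to 11541 CPM, a log2 difference of -6.78 ± 0.38. Mup12 was at 191, 249.9, 216, 2544, 2533 and 3719 CPM against a median of 10.2 CPM (7.16 ± 0.17), and WSB/EiJ averaged 1111 CPM. Mup6 was at 1.03 to 6.25 CPM, and its lowest CAST/EiJ library was just above the highest other library at 1.03 CPM. The Mup genes are among the most similar in the mouse genome, and counts per copy are uncertain.

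Among secreted defence proteins, complement genes were lower in 16 of 33 and higher in 7 (median -0.33), coagulation genes in 13 and 3 of 28 (-0.24) and acute-phase genes in 12 and 3 of 27 (-0.36). Over all genes 29.8% were lower and 30.6% higher, with 23.6% and 25.2% in females, 23.3% and 24.9% in males and 30.3% and 31.7% on the high-fat diet. In females alone 8 of the 27 acute-phase genes were higher and 5 lower (0.09), near the female shares, and in males 13 were lower and 14 not called (-0.78). Coagulation genes had 6 higher and 8 lower in females and 12 lower and 16 not called in males. Among high-fat livers, coagulation genes had 11 higher and 9 lower, acute-phase genes 9 and 10 (median 0.06) and complement genes 9 and 13. The strain difference was called sex-dependent for 3 of the 27 acute-phase genes, beside 3.11% of all genes. C1ra, which starts the classical pathway, was at 59.7 to 127 CPM against 113 to 423 CPM (-1.40 ± 0.13). Its copy C1rb differed the other way (2.20 ± 0.20), as did C1s2 (1.34 ± 0.13), and the part of reads divided among copies was not tested. Orm3, an orosomucoid gene, was at 0.189 to 0.874 CPM against a median of 6.87 CPM (-4.51 ± 0.60), and Apcs, the serum amyloid P gene, at 22.4 against 243 CPM (-2.93 ± 0.34). In the bile acid list 13 of 33 were lower and 9 higher, near the 29.8% and 30.6% of all genes. Slc10a2, a bile acid importer of bile ducts and ileum, was at 0.293 to 0.789 CPM, below all others at 1.01 CPM or more (-4.03 ± 0.42), and Cyp39a1, an oxysterol hydroxylase gene, was higher by 3.15 ± 0.12. Cyp7a1, the rate-limiting enzyme of bile acid synthesis, ranged from 5.03 to 219 CPM within CAST/EiJ and was not called (-0.37 ± 0.54).

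Of 21 clock genes 7 were called higher and 1 lower, beside 30.6% and 29.8% over all genes, and 13 were not called. In females 9 were higher and 2 lower, in males 1 and 2, and on the high-fat diet 3 and 4. Over all genes the shares were 25.2% and 23.6%, 24.9% and 23.3%, and 31.7% and 30.3%. Dbp, a transcription factor whose level swings daily, was at 33.5, 57.3 and 93.4 CPM in CAST/EiJ females and at 2.27, 2.46 and 46.1 CPM in males. The other females had a median of 3.47 CPM and the other males 16.4 CPM, so the females were high and 2 of the 3 males low. Dbp was called over both sexes (1.85 ± 0.43) but not without the third male (0.43, edgeR adjusted p = 0.492), and the same held for Ciart, a repressor of the clock (1.58 ± 0.38, and 0.53 with edgeR adjusted p = 0.327). The sex dependence of the Dbp difference was -3.75 ± 1.07 (edgeR adjusted p = 0.0426). Mice were killed in the morning, and the part of the hour of death was not tested.

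Taken by sex, the CAST/EiJ difference was called in 6993 genes in females (48.8%; 3605 higher, 25.2%, and 3388 lower, 23.6%) and in 6911 in males (48.2%; 3570 higher, 24.9%, and 3341 lower, 23.3%). With total counts in place of TMM the male split was 4587 to 2527, with the median log2 difference of all genes then at 0.12 in males and 0.17 for the male minus female difference, from near 0 with TMM. Of 5141 genes called in both sexes 5082 had the same direction. The direct test of the sex difference, which asks whether CAST/EiJ male minus female departs from the same quantity in the other strains, called 445 genes (3.11%), 219 with a larger value in males (1.53%) and 226 with a smaller one (1.58%). All 59 genes called in opposite directions in the sexes were among them. Of the P450 genes 21 of 60 were called here, 8 in the first direction and 13 in the second, and 3 of the 21 clock genes in the second, while none of the interferon or endoplasmic reticulum genes was called by edgeR or DESeq2 (4 and 1 at an unadjusted p under 0.05 in edgeR).

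Several enzymes that are female-biased in the other strains were read at high levels in CAST/EiJ males. They were picked for the largest sex dependence. Over a list of 28 female-biased genes, 7 were higher and 7 lower in CAST/EiJ males (median -0.26), near the 24.9% and 23.3% of all genes. The strain difference was called larger in males for 6 of the 28 and smaller for 3, beside 1.53% and 1.58% of all genes. Growth hormone secretion, pulsed in males and steadier in females, sets most sex differences of mouse liver. Sult3a1, an amine sulfotransferase that is mostly female-specific (chr10:33857721-33879532), was at 1711, 1665 and 1524 CPM in CAST/EiJ females and 1126, 1164 and 892 CPM in CAST/EiJ males. Other females spanned 20.5 to 1747 CPM and other males 0 to 17.7 CPM, so that CAST/EiJ males stood apart from all other males and CAST/EiJ females near the top of the other females. The male minus female difference of the strain difference was 7.74 ± 0.78 (edgeR adjusted p = 4.31e-09). Sult3a2 (chr10:33766424-33786704), its neighbour and close copy, was at 590 to 732 CPM in females and 129 to 236 CPM in males, against at most 2.21 CPM in other males (6.50 ± 0.66). Cyp2c40, an arachidonate-oxidising P450 gene, was at 25.9 to 56.6 CPM in CAST/EiJ males against a median of 0.497 CPM in other males, though males of PWK/PhJ were high as well, with up to 112 CPM (4.87 ± 0.45). Cyp3a16 lost its sex difference instead: CAST/EiJ females were at 5.18, 8.29 and 5.19 CPM and males at 4.53, 7.56 and 8.53 CPM, while other females averaged 169 CPM and other males 0.295 CPM (edgeR adjusted p = 4.31e-09).

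Moxd1, a monooxygenase-like gene (chr10:24223517-24302790), was high in CAST/EiJ males and near the lowest readable levels in females. CAST/EiJ males were at 317.5, 383.5 and 363.6 CPM and females at 0.200, 0.853 and 0.722 CPM. Other males had a median of 0.411 and reached 194 CPM, which gave a difference of 6.00 ± 1.00 (edgeR adjusted p = 1.40e-04).

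In the other direction, the strain difference of some P450 genes was larger in females. Cyp2b10, the classic target of the receptor CAR for foreign compounds (chr7:25897620-25926624), was at 132.8, 113.5 and 141.0 CPM in CAST/EiJ females and 0.0812, 0.0840 and 0.275 CPM in males. Other females had a median of 19.8 and other males of 1.13 CPM. The strain difference was thus positive in females (3.04 ± 0.43) and negative in males (-3.97 ± 0.99), and their difference was -7.01 ± 1.11 (edgeR adjusted p = 6.05e-05). Cyp2a5, the coumarin hydroxylase gene, was at 3141, 3808 and 3312 CPM in CAST/EiJ females, above all other females at 1752 CPM or less, and at 49.9, 97.7 and 153.5 CPM in males against a median of 212 CPM (difference -4.57 ± 0.53). Mup7, a male-biased Mup, was at 4.11 to 6.72 CPM in CAST/EiJ females and 48.8 to 75.8 CPM in males, against averages of 1.77 and 569 CPM (-4.75 ± 0.57).

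The acute-phase genes Saa1 and Saa2 also entered this list, with differences of -6.36 ± 1.62 (edgeR adjusted p = 0.0183) and -6.60 ± 1.77 (0.0277). Saa1 was at 361, 512 and 43.3 CPM in CAST/EiJ females and 3.13, 2.92 and 18.8 CPM in males, and 1 NZO/HlLtJ male library reached 24271 CPM. Neither was called without C57BL/6J, or without the second CAST/EiJ female, the first male or the second male (edgeR adjusted p of 0.0506 to 0.166). The total of 445 genes itself ranged from 217 to 541 when single libraries were left out, with 217 without the second CAST/EiJ male, the library with the most genes at 0, and 289 without the third CAST/EiJ female.

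**Figure D4:**
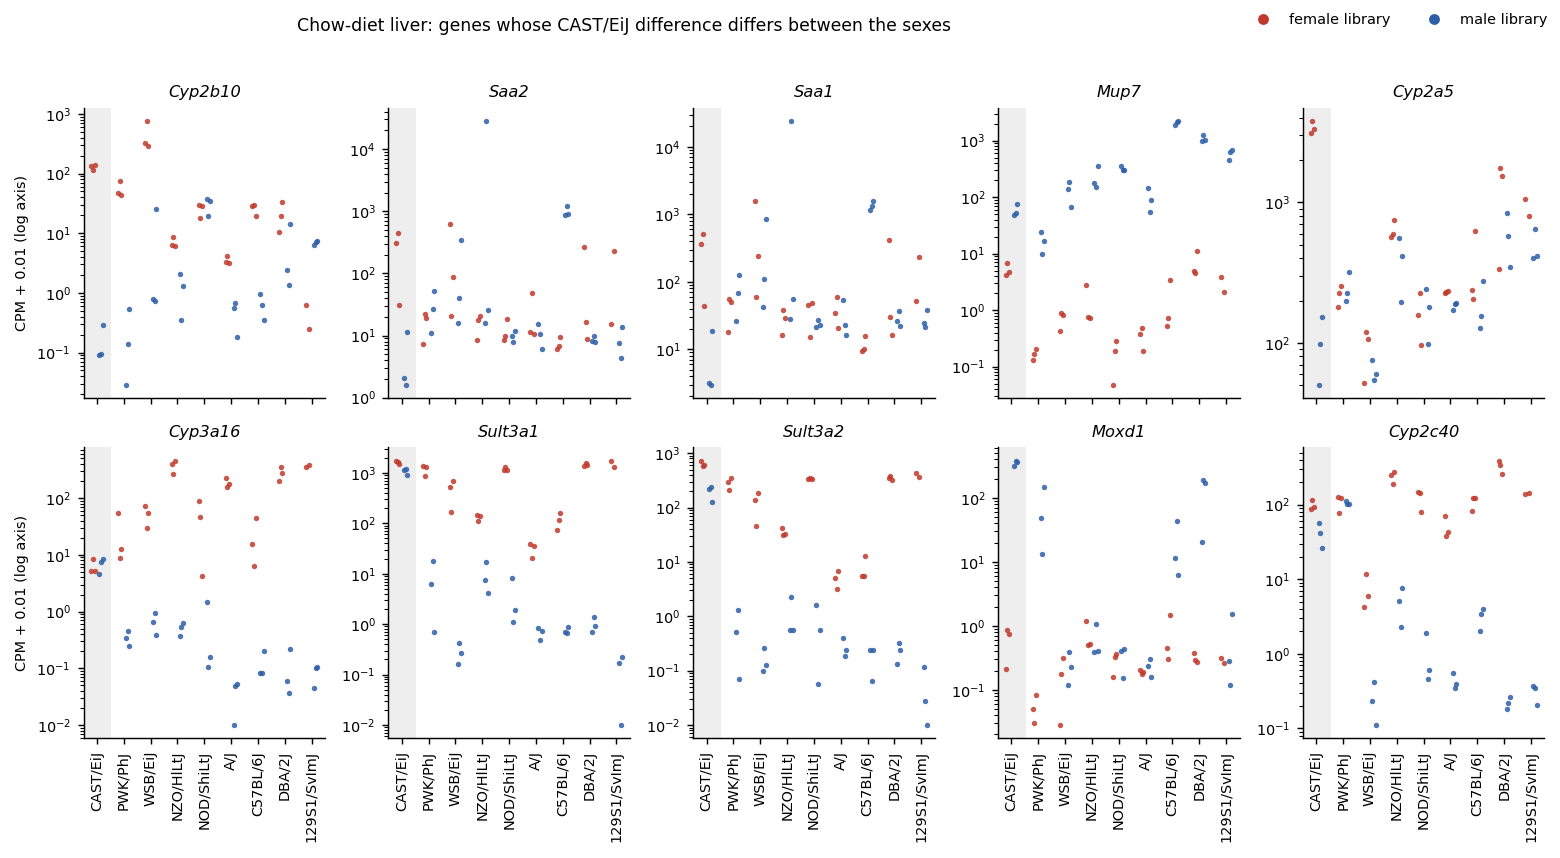
The 10 genes with the largest sex dependence of the CAST/EiJ difference are plotted in all 53 chow libraries, as CPM + 0.01 on a log y axis by strain on the x axis, females in red and males in blue. In the shaded CAST/EiJ column the sexes are far apart for Cyp2b10 (113.5 to 141.0 CPM against 0.275 CPM or less) and close together for Cyp3a16 (5.18 to 8.29 against 4.53 to 8.53 CPM).

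In the high-fat mice, which share no animal with the chow mice, CAST/EiJ differed from the other strains in 8895 genes (62.1%; 4547 higher, 31.7%, and 4348 lower, 30.3%). Of these 6734 were called on chow as well and 6652 had the same direction, which is 76.9% of the chow calls and 74.8% of the high-fat calls. Across all 14330 genes, which are not independent of each other, the log2 differences on the diets correlated with a Pearson r of 0.94 and a Spearman rho of 0.85. All 6 CAST/EiJ high-fat libraries lay beyond the other 46 in 529 genes (3.69%). Of the genes above on chow 184 of 274, and of those below 118 of 195, were so on the high-fat diet too, and none switched sides. Of the 15 protein-coding genes plotted first, Atp6v0a4 alone did not keep the separation, at 21.1 against 0.520 CPM.

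The low interferon and MHC levels were read again, with 48 of 55 and 26 of 30 lower, as were those of macrophage markers, with 10 of 13, where 30.3% of all genes were lower and 31.7% higher. Isg15 was at 0.925 against 12.2 CPM. Of the endoplasmic reticulum genes 8 of 26 were higher, near the share of all genes, and 3 lower, with a median of 0.21, and Hspa5 was at 1221 against 1163 CPM (edgeR adjusted p = 0.462). Of the 28 cholesterol genes 20 were lower and 3 higher, among the lower ones Msmo1 at 5.37 against 66.4 CPM. Cyp2b10, at 113.5 CPM or more in chow-fed CAST/EiJ females, was at 2.10, 0.623 and 1.36 CPM in the 3 high-fat females. Sult3a1 remained high in the 3 CAST/EiJ high-fat males, at 2415, 1901 and 2222 CPM. Whether the strain difference itself changed with diet was not tested, and 1 of the high-fat groups, NZO/HlLtJ males, held 1 mouse.

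**Figure D5:**
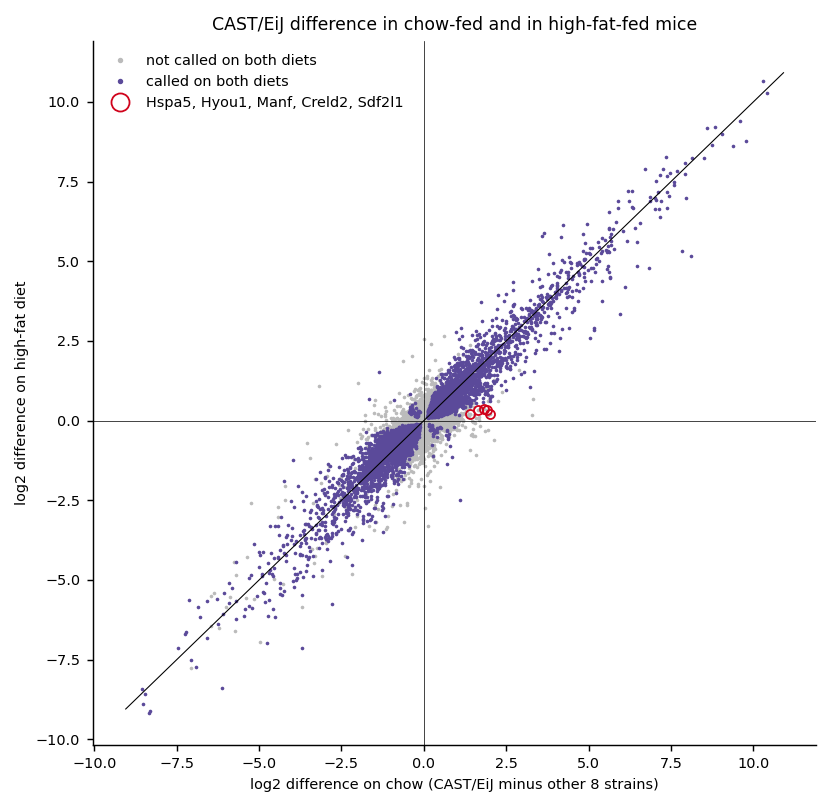
Each point is 1 of 14330 genes, with the log2 difference of CAST/EiJ from the other 8 strains on chow on the x axis and on the high-fat diet on the y axis. Genes called on both diets are purple, the diagonal marks equal differences, and the 5 circled endoplasmic reticulum genes lie below it, between 1.39 and 2.00 on chow and between 0.20 and 0.36 on the high-fat diet.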

How the data were processed

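RNA of whole liver was sequenced from 106 mice, and the deposited table holds raw counts of reads per gene, not normalised. The submitters' processing notes name FastQC, STAR 2.73a and edgeR 3.24.3. The genome build, the counting program and its use of strand are not given in the sources used here. The table has 14330 genes, of which 14321 were named from GENCODE M21, and 3 lines of unassigned reads, which were left out of library sizes and tests. No column lacked a sample, and no pair of libraries was identical. Groups came from the strain, sex and diet labels. 1 chow library of 129S1/SvImJ females was left out.

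Counts of 53 chow libraries in 18 groups of strain and sex were fitted with edgeR 4.0.16 in R 4.3.3 (TMM, trended dispersion, quasi-likelihood F test, 35 residual degrees of freedom). P-values were adjusted by Benjamini-Hochberg over all 14330 genes with a threshold of 0.05. The contrasts were CAST/EiJ minus the equally weighted other 8 strains over both sexes, in females, in males, and males minus females. The 52 high-fat libraries were fitted alike. Fold changes are on the log2 scale with SE, and levels are CPM on TMM-corrected sizes. The labels do not tie mice to litters, so p-values measure the spread between mice of 1 strain, sex and diet. In simulated data on 14330 genes, the chow test recovered 67.2% of changes of 0.5 and 100% of changes of 1 on the log2 scale. The sex test recovered 2.99% of changes of 0.5 and 62.7% of changes of 1. Changes were planted in 66 or 67 genes per size and test, all with a mean log level above that of 1 CPM. Counts were drawn from the dispersion trend alone, so recovery in genes of lower level or wider spread was not measured.

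Genes were named by rule: the 8 highest and 8 lowest log2 differences among protein-coding genes without overlap and at 5 CPM or more, genes at the floor of 3 counts on 1 side, the 4 largest rises and falls in CPM, the 5 highest and 5 lowest sex differences, and up to 3 called members per list and direction. Genes added after their values were seen are said to be so, where named. The comparison, the lists and the rule were chosen with earlier results of these data known. Alternatives were DESeq2 1.42.0, limma 3.58.1, total-count scaling, a filter at 1 CPM in 6 libraries, a minimum log2 change of 0.5 (glmTreat), strain means, other sets of libraries or strains, and leaving out each library. Promoter sequences are from RefSeq (GRCm38.p6). Results for a few genes under this rule have been omitted.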

Additional observations from a re-analysis of the deposited data

Results flagged for a closer look

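The strain difference between CAST/EiJ and the other chow-fed mice was tested against sex, and 445 genes differed between females and males by edgeR's test of the difference itself. The 10 named genes are given as the log2 strain difference in males minus that in females. The values were -7.01 for Cyp2b10, -6.60 for Saa2, -6.36 for Saa1, -4.75 for Mup7 and -4.57 for Cyp2a5. In the other direction they were 9.18 for Cyp3a16, 7.74 for Sult3a1, 6.50 for Sult3a2, 6.00 for Moxd1 and 4.87 for Cyp2c40. Cyp3a16 was at the floor of 3 counts in 1 of the 18 chow groups, so its value depends on the prior count of the fit. Sex and range of animal numbers cannot be told apart within CAST/EiJ.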

How the results depend on the processing

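No paired analysis was possible because the replicate numbers were given in accession order and tie no mice across groups. With strain means as the unit, limma called 319 genes in the chow comparison, and in the gene lists 1 interferon, 0 MHC, 0 macrophage, 2 endoplasmic reticulum, 2 apolipoprotein and 0 cholesterol genes. The spread between strains then rests on the means of the other 8 strains. Against a minimum log2 change of 0.5, edgeR's glmTreat called 3399 genes over both sexes, 2987 in females, 2883 in males and 145 for sex dependence, with 15 MHC, 9 endoplasmic reticulum, 10 apolipoprotein and 8 cholesterol genes.

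The sex dependence count was 678 with libraries of both diets in the fit, 744 without PWK/PhJ and WSB/EiJ, 724 without WSB/EiJ and 772 with total-count scaling, where 616 were larger in males and 156 smaller. The cause was not tested. Leaving out single libraries gave 217 to 541 for sex dependence, 8029 to 8898 over both sexes, 5815 to 7275 in females and 5678 to 7262 in males. The lists ranged over 46 to 48 interferon, 24 to 27 MHC, 12 to 12 macrophage, 17 to 20 endoplasmic reticulum, 15 to 20 apolipoprotein and 13 to 13 cholesterol genes. Total-count scaling split the chow calls 4621 to 3790 and the female calls 3069 to 3590.

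Of 17000 values of named genes under the alternatives, 16633 kept direction and side of the threshold, 365 lost the call and 2 changed sign. Both were Ces2a, a carboxylesterase gene, from 0.45 to -0.0627 without PWK/PhJ and -0.155 without PWK/PhJ and WSB/EiJ. Most of the 17000 values came from fits that left out 1 library. With strain means as the unit, 29 named results kept direction and side and 204 lost the call. With glmTreat 188 kept them and 55 lost the call. Apart from glmTreat and strain means, 214 of 243 named results kept direction and side throughout.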
